A study of Mus musculus with 240 samples.

Results

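The genes of the postsynaptic scaffold families Dlgap, Shank and Homer were followed through brain RNA-seq of the Collaborative Cross founder strains. The 10 members (Dlgap1, Dlgap2, Dlgap3, Dlgap4, Shank1, Shank2, Shank3, Homer1, Homer2 and Homer3) were found by gene name among the 55414 genes of the count table, and all 10 were among the 14785 genes with deposited log2 values. The study compared 8 inbred strains: C57BL/6J (B6), A/J (AJ), 129S1/SvImJ (S129), NOD/LtJ in the series' text and NOD/ShiLtJ in the study's methods (NOD), NZO/HILtJ (NZO), and 3 wild-derived strains, WSB/EiJ (WSB), PWK/PhJ (PWK) and CAST/EiJ (CAST). From each strain, 3 females and 3 males gave punches of the amygdala at its central nucleus (CeA), the core of the nucleus accumbens (NAcc) and the prelimbic cortex (PrL), 144 samples from 48 mice in all. The mice had received no ethanol or other treatment, and were 8 weeks old by the series' text and 10 to 12 weeks old by the study's methods. B6 and PWK were taken by the study as strains that prefer ethanol, and the other 6 as low preference strains, although none of these mice drank it.

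Dlgap, Shank and Homer proteins form the deep layers of the postsynaptic density, the protein plate under the receptors of excitatory synapses. Dlgap proteins (also called SAPAP or GKAP) bind the PSD-95 family above them, Shank proteins bind Dlgap below it, and Homer proteins join Shank to metabotropic glutamate receptors and to calcium channels of the internal stores. Shank3 is the Shank best known from striatal neurons, Dlgap3 is known from corticostriatal synapses, and Homer1 is the gene of both the long scaffold forms and the short, activity-induced form Homer1a. Counts per gene do not separate those forms. Homer2 is known in mice from studies of the accumbens and ethanol intake.

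RefSeq promoter windows of 300 bases (250 before to 50 after a start, build GRCm38.p6) were found for 7 of the 10 genes, with 10 entries. The first entries of Homer1, Homer2 and Dlgap4 are shown. The strain differences described later include those of these genes, and of others such as Shank1, which had no entry. Capitals mark TGACG, the core of the cAMP response element, and GGGCGG, the GC box, on either strand, and neighbouring copies run together.
Homer1, chr13:93303507-93303806, plus strand: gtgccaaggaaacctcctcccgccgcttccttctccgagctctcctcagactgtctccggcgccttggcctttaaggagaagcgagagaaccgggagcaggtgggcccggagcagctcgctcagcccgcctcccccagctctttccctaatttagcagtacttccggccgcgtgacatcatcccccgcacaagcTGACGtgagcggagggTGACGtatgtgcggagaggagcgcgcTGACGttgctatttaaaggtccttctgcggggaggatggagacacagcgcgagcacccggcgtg
Homer2, chr7:81706876-81707175, minus strand: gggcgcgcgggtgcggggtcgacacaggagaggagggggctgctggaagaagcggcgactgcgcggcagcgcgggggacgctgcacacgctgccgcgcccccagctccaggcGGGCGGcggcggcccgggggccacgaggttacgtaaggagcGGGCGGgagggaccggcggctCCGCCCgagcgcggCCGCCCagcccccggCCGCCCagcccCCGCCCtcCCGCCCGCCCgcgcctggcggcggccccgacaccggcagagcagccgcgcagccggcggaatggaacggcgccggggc
Dlgap4, chr2:156720715-156721014, plus strand: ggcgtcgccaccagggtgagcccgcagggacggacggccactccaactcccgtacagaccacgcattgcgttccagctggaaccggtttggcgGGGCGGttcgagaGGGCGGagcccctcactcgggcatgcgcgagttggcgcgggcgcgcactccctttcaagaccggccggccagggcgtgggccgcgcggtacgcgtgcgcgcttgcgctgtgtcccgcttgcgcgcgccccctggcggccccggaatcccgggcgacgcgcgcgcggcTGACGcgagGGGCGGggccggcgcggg
The Homer1 window shown held 3 copies of TGACG and no GC box, the Homer2 window 8 GC boxes and no TGACG, and the Dlgap4 window 3 GC boxes and 1 TGACG. The second windows of Homer1 and of Homer2, not shown, held neither motif, so the counts describe a window and not the gene. Among 32851 promoter windows of this length, 20.8% held TGACG, and 1.03% held it at least 3 times. The GC box was in 35.7%, at least 3 times in 10.7%. These letters are a description of the reference strain. The sequences of the other strains were not analysed here.

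Levels are given in CPM, the counts scaled by library size and TMM factors, and levels of different genes were compared per kb of exon. On that scale, Dlgap3 had the highest level of the 10 genes in each region, with medians of 64.5 CPM per kb (CeA), 68.7 (NAcc) and 82.1 (PrL). Homer2 and Homer3 were the lowest, with medians between 1.90 and 7.42 CPM per kb. Of the summed level per kb of the Dlgap family, Dlgap3 took a median of 44.7% (CeA), 53.9% (NAcc) and 43.8% (PrL). Within the Homer family, Homer1 took 60.6%, 71.4% and 61.2%. The Shank family changed its leading gene with the region. Shank1 held a median of 57.2% of the Shank level per kb in the PrL and 48.1% in the CeA, while Shank3 held 50.9% in the NAcc. Shank1 was above Shank3 per kb in 48 of 48 PrL libraries, in 38 of 48 CeA libraries and in 11 of 47 NAcc libraries. The ratio of Shank1 to Shank3 had a median of 2.56 in the PrL (1.22 to 3.05), 1.69 in the CeA (0.289 to 2.32) and 0.612 in the NAcc (0.234 to 2.07). Thus no PrL library had the order seen in most NAcc libraries, and the range of the CeA ran over both.

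**Figure D1:**
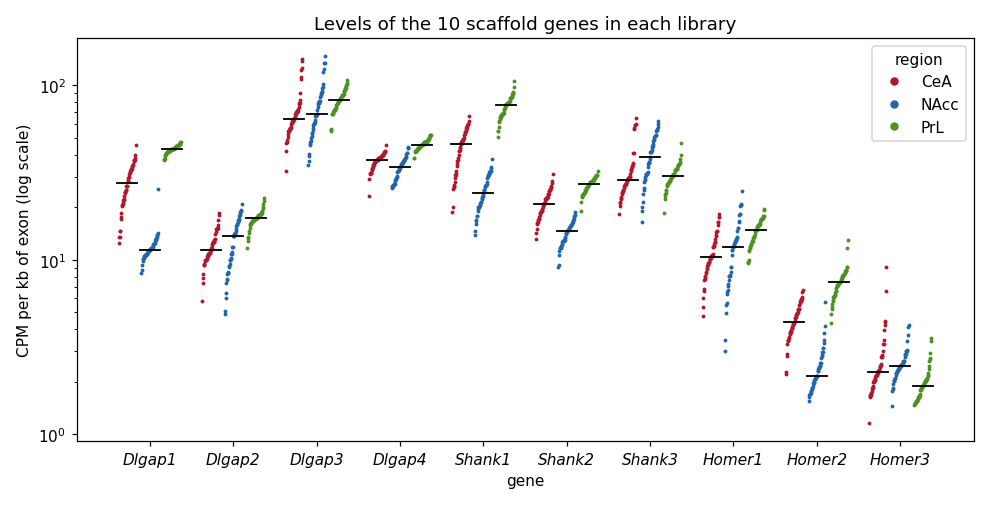
Levels of the 10 genes in each library (48 CeA, 47 NAcc, 48 PrL), in CPM per kb of exon on a log scale, with 1 point per library sorted within each region and black lines at the medians. Dlgap3 sits highest and Homer3 or Homer2 lowest in each region, and the points of the CeA and NAcc spread more widely than those of the PrL for most genes.

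The libraries (48 of the CeA, 47 of the NAcc and 48 of the PrL) held 14942820 to 33951616 counts each. A member was covered by 73 to 23656 counts per library, the lowest being Homer3 (73 to 598) and the next Homer2 (361 to 3581). Homer3 also shares 25.4% of its exon bases with Ddx49 on the opposite strand, in GENCODE M21. The kit marks strand, but whether strand was used in counting is not given in the sources used here, so its values are less certain. The other 9 genes shared at most 4.16% of their exon bases with another gene. Sequencing the same library again moved the level of a member by a median of 0.015 (Dlgap1) to 0.12 (Homer3) on the log2 scale. The spread between mice of a strain (residual SD) was 0.08 to 0.30 in the PrL, 0.20 to 0.60 in the NAcc and 0.12 to 0.54 in the CeA.

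The punches were checked on marker lists, and the CeA and NAcc punches were not uniform. Summed CPM of 8 striatal neuron markers ran from 262 to 8882 in the CeA, from 429 to 8747 in the NAcc and from 181 to 2270 in the PrL, with medians of 1197, 4154 and 249. Summed CPM of 5 pallial glutamatergic markers ran from 20.1 to 2494 in the CeA, from 2.24 to 1386 in the NAcc and from 1771 to 3174 in the PrL. Choroid plexus markers reached 9343 CPM in a CeA library, with a median of 38.5. The 5 markers of the central amygdala summed to medians of 159 (CeA), 281 (NAcc) and 24.8 (PrL), so their sum did not set the CeA apart from the NAcc. Of the 5, 1 was called higher in the CeA than in the NAcc and 2 lower. Dlk1 had medians of 57.5 CPM in the CeA and 192 in the NAcc, while Prkcd had 46.2 and 17.5. Oligodendrocyte markers had medians of 3079, 6529 and 1803 CPM in the CeA, NAcc and PrL, diencephalic markers 54.7, 38.7 and 17.4, astrocyte markers 1168, 1205 and 1095, and microglia markers 291, 335 and 270. In 15 libraries (4 of the CeA, 6 of the NAcc and 5 of the PrL), the striatal or the pallial mean lay more than 3 scaled median absolute deviations from that of the region. In bulk tissue, fewer cells of a type and less RNA per cell cannot be told apart.

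Most of the scaffold genes were highest in the PrL. In contrasts of regions averaged over the 8 strains (limma, called where the Benjamini-Hochberg adjusted p was under 0.05), 8 of 10 members were lower in the NAcc than in the PrL, and Shank3 and Homer3 were higher. Of all genes, 38.4% were lower and 44.1% higher. Between the CeA and the PrL, 8 members were lower in the CeA and 1, Homer3, was higher, against 35.1% and 38.8% of all genes. Between the CeA and the NAcc, 5 members were higher in the CeA and 1, Shank3, was lower, against 33.2% and 35.9% of all genes.

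The largest region differences were those of Dlgap1, Shank1 and Homer2. Dlgap1 had 668 to 849 CPM in the PrL (median 776), 224 to 809 in the CeA (median 492) and 151 to 453 in the NAcc (median 205). The PrL and NAcc libraries of Dlgap1 did not overlap, and its level was 3.71-fold higher in the PrL (log2 difference NAcc minus PrL -1.89, SE 0.0545, adjusted p = 4.83e-61). Shank1 had 533 to 1111 CPM in the PrL (median 815), 197 to 703 in the CeA (median 484) and 146 to 396 in the NAcc (median 254), again with no overlap between the PrL and the NAcc (3.16-fold, log2 difference -1.66, SE 0.0562). The share of all genes without overlap between these regions was not counted. Homer2 had 54.8 to 164 CPM in the PrL (median 93.6), 27.8 to 85.0 in the CeA (median 55.5) and 19.6 to 72.5 in the NAcc (median 27.2). Its level was 3.16-fold higher in the PrL than in the NAcc (log2 difference -1.66, SE 0.0515), and it was lower in the NAcc in each of 47 mice with both regions.

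Shank2, the other Shank gene that was higher in the PrL, was 1.90-fold higher in the PrL than in the NAcc, in 47 of 47 mice. Dlgap4 was 1.37-fold higher, Dlgap2 1.43-fold, Homer1 1.31-fold and Dlgap3 1.15-fold, and these were the smaller differences. The adjusted p of Dlgap3 was 0.0153, with a lower level in the PrL than in the NAcc in 18 of 47 mice. Shank3 was the exception among Shank genes. It was 1.26-fold higher in the NAcc than in the PrL (log2 difference 0.33, SE 0.0729, adjusted p = 3.09e-05, in 34 of 47 mice), and in the CeA it did not pass against the PrL (log2 difference 0.02, SE 0.0720, adjusted p = 0.82). Homer3, at 5.01 to 14.5 CPM in the NAcc and 5.06 to 12.3 in the PrL, was 1.28-fold higher in the NAcc, in 40 of 47 mice.

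The CeA lay between the other regions for the genes that differed most. Dlgap1 was 1.65-fold lower there than in the PrL and 2.26-fold higher than in the NAcc, Shank1 1.78-fold lower and 1.77-fold higher, Homer2 1.67-fold lower and 1.90-fold higher, and Shank2 1.28-fold lower and 1.48-fold higher. Dlgap4 was below its PrL level in 48 of 48 mice (1.25-fold, log2 difference -0.32, SE 0.0305) and 1.10-fold above its NAcc level. Dlgap2, Dlgap3 and Homer1 were lower in the CeA than in the PrL by log2 differences of -0.56, -0.26 and -0.44, and gave adjusted p of 0.582, 0.429 and 0.580 between the CeA and the NAcc. Shank3 was 1.24-fold lower in the CeA than in the NAcc, with the CeA higher in 14 of 47 mice.

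**Figure D2:**
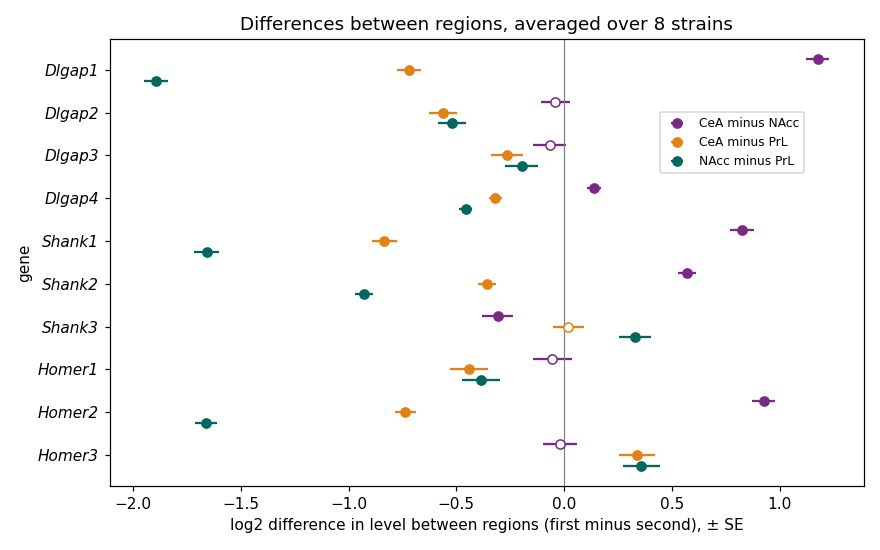
Log2 differences in level between regions for each of the 10 genes, averaged over 8 strains, with SE bars, filled where the adjusted p was under 0.05 and open where it was not. Dlgap1, Shank1 and Homer2 lie furthest to the left for NAcc minus PrL, between -1.66 and -1.89, while Shank3 and Homer3 lie to the right of 0.

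Strain means of a member differed by up to 2.20-fold within a region, for Homer1 in the NAcc, and for Dlgap1 in the PrL by 1.06-fold. By the F test over the 8 strains, 7 of 10 members differed in CeA punches, 6 in NAcc punches and 5 in PrL punches, whereas 80.8%, 76% and 84.1% of all genes did. Of the 280 pairs of a member and a contrast of strains in each region, 49 (17.5%) passed for the CeA, 35 (12.5%) for the NAcc and 44 (15.7%) for the PrL. Over all genes the shares were 28.9%, 26% and 33.1%. No pair passed the test against a log2 fold change of 1, although 5 pairs in the NAcc were fitted at 1 or more. Shank1 had the most called contrasts in the CeA (11 of 28) and in the PrL (11), and Homer2 had the most in the NAcc (8). Dlgap1 had no called contrast in the NAcc or the PrL, and its strain means in the PrL ran only from 748 CPM (PWK) to 790 (B6). Dlgap3 and Dlgap4 also had none in the PrL.

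**Figure D3:**
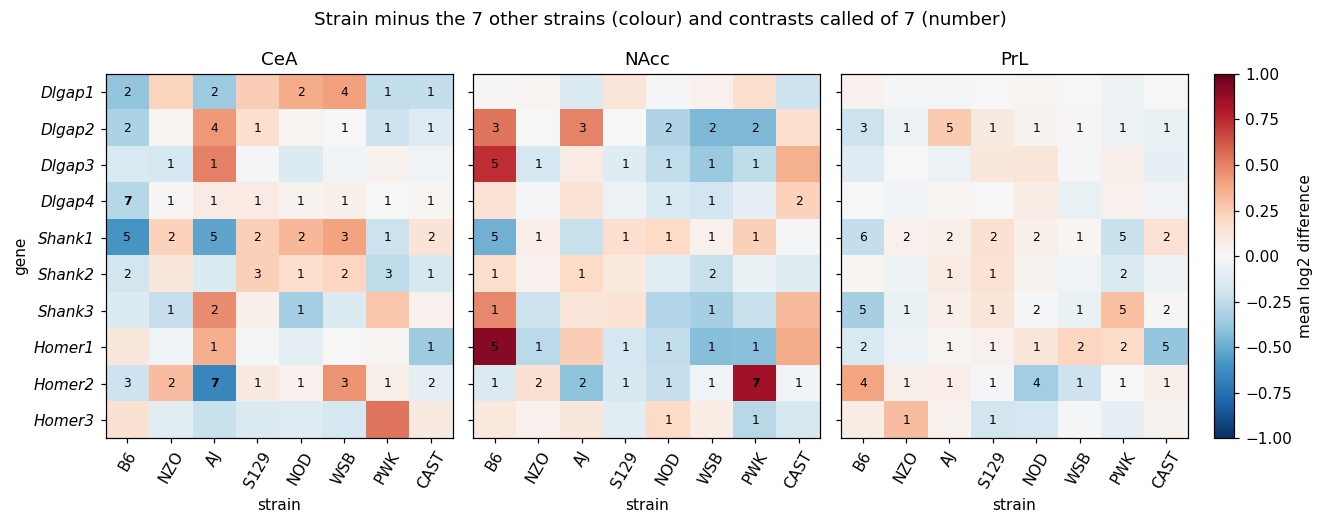
Mean log2 difference of each strain from the 7 others (colour, from -1 to 1) for the 10 genes in each region, with the number of contrasts called of 7 written in the cell. The 7s stand at Dlgap4 in B6 and Homer2 in AJ in the CeA, and at Homer2 in PWK in the NAcc, and the PrL panel is the palest.

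A unique difference is one in which a strain differed from all 7 others in the same direction. There were 3 among the members, and 2 of them were of Homer2. Homer2 had 37.4 to 72.5 CPM in the NAcc of the 6 PWK mice (median 46.0) and 19.6 to 39.4 in the 41 other mice. Of the PWK mice, 5 were above all mice of other strains. The level in PWK was 79.0% higher than the mean of the others (log2 difference 0.84, SE 0.104, largest adjusted p of the 7 contrasts = 0.0011), and 2.87% of all genes were unique in the same direction. The values of the PWK mice were 37.4, 42.2, 43.7, 48.3, 52.9 and 72.5 CPM. The highest was mouse 48, whose punch held 1386 CPM of pallial markers against a median of 15.3 in the NAcc. Without that mouse the log2 difference was 0.73, and the call held. The call also held with the striatal or the pallial marker mean as a covariate and without the 15 libraries, 3 of them PWK punches of the NAcc.

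The next unique difference was a low level of Homer2 in the CeA of AJ. The values were 27.8, 28.6, 35.3, 36.2, 47.2 and 54.7 CPM in AJ, and 4 of the 6 mice were below all mice of other strains. The level was 36.4% lower than the mean of the others (log2 difference -0.65, SE 0.111, largest adjusted p = 0.0411, 0.71% of all genes unique and lower). The 4 lowest mice were the 4 AJ punches with 4759 to 8882 CPM of striatal markers. The remaining 2 punches had 486 and 1138. The median of AJ in these markers was 4909 CPM, against 498 in NOD, the lowest strain. The part of the punch makeup in the low level was not tested. With the striatal marker mean as a covariate the log2 difference was -0.49 (largest adjusted p = 0.113), and without the libraries that stood apart it was -0.58 (0.223). The call was also lost with no filter on low counts (0.139), by edgeR (0.0574) and by DESeq2 (0.0535), with differences of -0.64, -0.63 and -0.62, and in 8 of 48 fits with a mouse left out, namely AJ mice 5 (0.135), 13, 29 (0.142) and 37 and B6 mice 1, 17, 25 and 41. The difference was between -0.77 and -0.56 over all 48 fits.

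In the PrL, the strain highest in Homer2 was B6, with 91.3 to 164 CPM (median 113), and the lowest was NOD, with 61.8 to 86.5 (median 75.8). Those groups did not overlap, but they were picked as the ends of the strain order. The share of all genes with such a gap was not counted. The B6 level was 32.6% above Low_Average, the mean of the 6 low preference strains (log2 difference 0.41, SE 0.0939, adjusted p = 0.000463), and held without the libraries that stood apart (log2 difference 0.19, adjusted p = 0.0315). The highest strain mean of Homer2 was that of WSB in the CeA, PWK in the NAcc and B6 in the PrL. Only PWK was called against all 7 other strains, while WSB was called against 3 of 7 and B6 against 4 of 7.

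The unique difference outside the Homer family was Dlgap4 in the CeA of B6. Dlgap4 had 197 to 323 CPM in B6 (median 266) and 263 to 385 in the other 42 mice, and 2 of the 6 B6 mice were below all of them. The level was 18.1% lower (log2 difference -0.29, SE 0.0532, largest adjusted p = 0.00457), where 1.39% of all genes were unique and lower. The strain means of the other 7 lay within 312 and 327 CPM. The B6 CeA punches had a median of 546 CPM of pallial markers. The other strains had 628 (AJ) to 1715 (WSB). With the pallial marker mean as a covariate the log2 difference was -0.23 and the largest adjusted p 0.0697, so the unique call was lost. The part of the punch makeup in the low level of Dlgap4 was not tested. The B6 mean of Dlgap4 was 308 CPM in the NAcc, where strain means ran from 254 to 326, and 388 in the PrL, where they ran from 372 to 405.

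**Figure D4:**
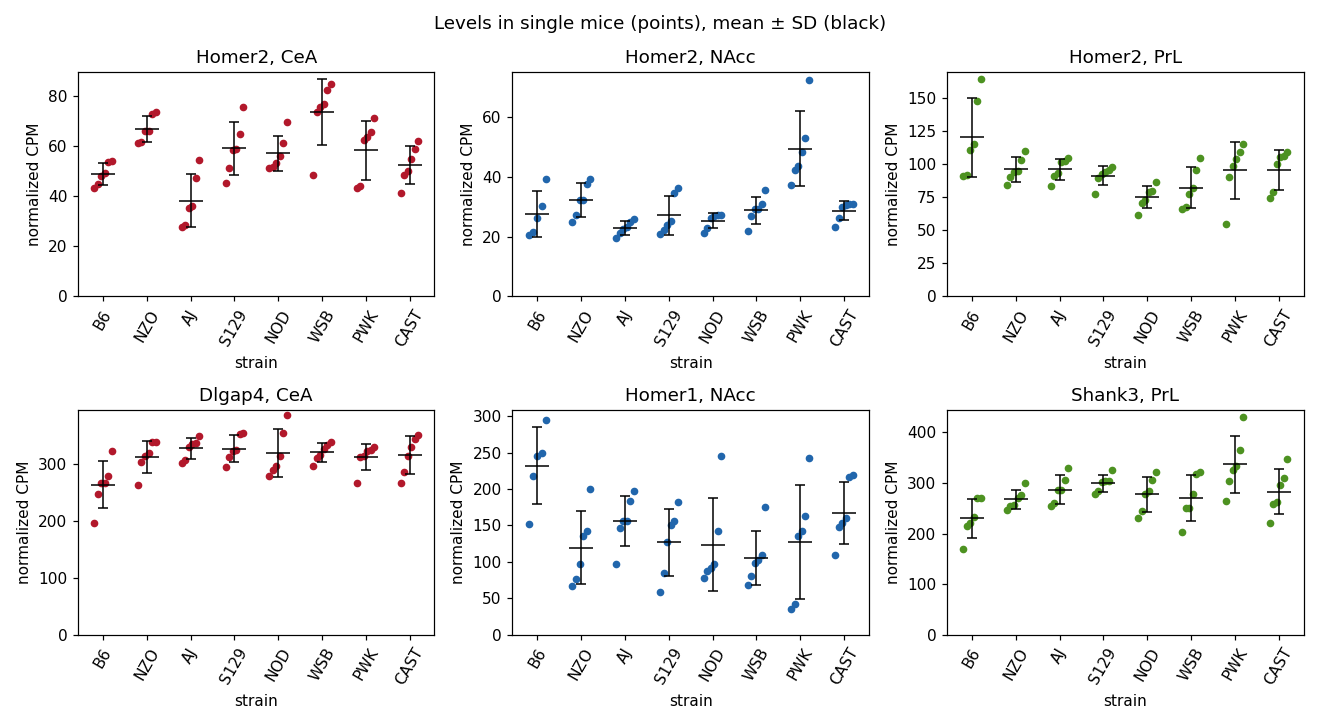
Normalized CPM in single mice (points) by strain, with the mean and SD of each strain in black, for Homer2 in each region and for Dlgap4 in the CeA, Homer1 in the NAcc and Shank3 in the PrL. For Homer2 in the NAcc 5 of the 6 PWK mice lie above all mice of the other strains, which reach 39.4 CPM, and for Homer1 in the NAcc the B6 mice lie high but overlap with others.

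The remaining strain differences of the Dlgap genes, which link PSD-95 to Shank, were those between the ends of the strain order, so the pairs named here and in the Shank and Homer genes that follow were picked as extremes. Dlgap1 had its lowest CeA mean in B6 (224 to 509 CPM, median 372) and its highest in WSB (393 to 686, median 665), and these strains differed (log2 difference -0.70, SE 0.222, adjusted p = 0.0141). Dlgap2 was lowest in B6 and highest in AJ in both the CeA and the PrL. Its CPM was 35.7 to 93.6 in B6 and 70.4 to 114 in AJ in the CeA (log2 difference -0.66, SE 0.150), and in the PrL 72.1 to 112 and 107 to 138 (-0.42, SE 0.0835). In the NAcc B6 had 84.3 to 119 CPM of Dlgap2 with a mean of 103, next to 101 in AJ, against 37.2 to 101 CPM in WSB, the lowest strain (log2 difference 0.86, SE 0.272, adjusted p = 0.0155). The B6 punch that the authors left out had 13.9 CPM of Dlgap2 and does not enter its mean. Dlgap3 had its highest NAcc mean in B6 and its lowest in WSB (177 to 418 CPM, log2 difference 0.97, SE 0.267). In the CeA its only called contrast was NZO (212 to 360 CPM) below AJ (297 to 626), with an adjusted p of 0.0461. Dlgap4 in the NAcc was lowest in WSB (226 to 342 CPM) and highest in CAST (277 to 374), with an adjusted p of 0.0145.

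Among the Shank genes, which hold Dlgap and Homer together, Shank1 was lowest in B6 in each region. Its highest strain was WSB in the CeA (402 to 632 CPM, log2 difference -0.87, SE 0.185), PWK in the NAcc (211 to 360 CPM, -0.63, SE 0.173) and CAST in the PrL (647 to 1111 CPM, -0.34, SE 0.0874). Shank2 was lowest in PWK and highest in S129 in the CeA (142.5 to 232 and 181 to 306 CPM, adjusted p = 0.0133) and in the PrL (205 to 296 and 301 to 327 CPM, adjusted p = 0.00941). In the NAcc it was lowest in WSB (101 to 166 CPM) and highest in AJ (121 to 203), with an adjusted p of 0.0202. Shank3 had its lowest CeA mean in NOD (204 to 273 CPM) and its highest in AJ (242 to 596), and these differed by 0.72 on the log2 scale (SE 0.219). NOD and AJ were also the strains with the lowest and the highest median of striatal markers in the CeA, 498 and 4909 CPM. In the NAcc the only called contrast of Shank3 was B6 (324 to 555 CPM) above WSB (196 to 478), with an adjusted p of 0.0432.

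Homer1, the most abundant Homer, was lowest in CAST in the CeA (72.7 to 128 CPM) and highest in AJ (101 to 211), its only called contrast there (adjusted p = 0.0312). In the NAcc, B6 was above WSB (67.8 to 175 CPM) by 1.17 on the log2 scale (SE 0.354, adjusted p = 0.0116). Homer2 in the NAcc had its lowest strain in AJ (19.6 to 25.9 CPM), as in the CeA, and AJ minus PWK was -1.09 on the log2 scale (SE 0.144). Homer3 had no called contrast in the CeA and 1 in each other region, NOD (8.40 to 14.1 CPM) above PWK (5.01 to 8.98) in the NAcc and NZO (5.64 to 11.8) above S129 (5.25 to 7.01) in the PrL, with adjusted p of 0.0254 and 0.0480.

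The contrasts with Low_Average set each preferring strain against a mean of 6 strains, so a single low preference strain can lie level with it. In the CeA, 4 members were lower in B6 and none was higher, against 18.8% of all genes lower and 22.3% higher. In the same contrast 2 of 2 tested oligodendrocyte markers and 3 of 5 astrocyte markers were higher. The summed oligodendrocyte markers had a median of 8484 CPM in B6 punches, while strain medians elsewhere ran from 2014 (WSB) to 5178 (AJ). Their part in the lower levels was not tested. The 4 members lower in B6 were Shank1, Dlgap1, Dlgap2 and Dlgap4. Shank1 was 35.5% lower (315 against 498 CPM in means, SE 0.140 on the log2 scale, adjusted p = 0.000357). Dlgap1 was 26.1% lower (adjusted p = 0.0351), Dlgap2 21.8% lower (adjusted p = 0.0124) and Dlgap4 18.4% lower (adjusted p = 2.71e-05). The low preference strain AJ was near B6 in Shank1 (B6 minus AJ -0.054 on the log2 scale, adjusted p = 0.864). The same held for Dlgap1 (-0.023, adjusted p = 0.954), so neither gene set B6 apart from AJ. Shank1 had 269 to 461 CPM in B6 (median 281), and 5 of the 6 B6 mice were at or below 322. With the pallial marker mean as a covariate, Shank1 (adjusted p = 0.00157) and Dlgap4 (0.000197) were still called, and Dlgap1 (0.282) and Dlgap2 (0.0522) were not. Dlgap1 was also lost with the striatal mean (0.0880) and without the libraries that stood apart (0.0556), and Dlgap2 without those libraries (0.134). Leaving out single B6 mice ended the call of Dlgap1 (mouse 1, 0.164; mouse 17, 0.0771; mouse 33, 0.0974) and of Dlgap2 (mouse 9, 0.0765; mouse 1, 0.146, with a log2 difference of -0.21 in place of -0.35).

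In the NAcc of B6, 2 members were higher and 1 was lower, against 17.3% and 14.9% of all genes. The 5 B6 mice had 152, 219, 246, 250 and 295 CPM of Homer1, 82.3% above Low_Average (log2 difference 0.87, SE 0.282, adjusted p = 0.0152). They had 311, 387, 559, 611 and 665 CPM of Dlgap3, 64.2% above (log2 difference 0.72, SE 0.213, adjusted p = 0.00801). In both genes the B6 mice overlapped with other strains, with 3 of 5 above all others for Homer1 and 2 of 5 for Dlgap3. Shank1 had 146, 168, 186, 199 and 276 CPM, 27.1% below Low_Average (adjusted p = 0.00766). These calls were absent in the 144 libraries that include the B6 punch which the authors left out, with adjusted p of 0.449 for Homer1, 0.295 for Dlgap3 and 0.139 for Shank1. Shank1 was also lost with the striatal marker mean as a covariate (adjusted p = 0.0637) and without mouse 9 (0.0534), Homer1 without mouse 17 (0.0646) and Dlgap3 without mouse 33 (0.0558).

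In the PrL of B6, 3 members were lower and 1 was higher, against 19.3% and 18.2% of all genes. Shank1 was 17.6% lower (688 against 832 CPM in means, adjusted p = 0.000721), Shank3 18.6% lower (230 against 281 CPM, adjusted p = 0.00126) and Dlgap2 14.7% lower (adjusted p = 0.00334), and Homer2 was the one higher. The B6 punches of mice 25 and 33 were among the libraries that stood apart. Without all 15 libraries that stood apart, 5 of them of the PrL, Shank1 kept an adjusted p of 0.0491, while Shank3 had 0.0596 and Dlgap2 0.125. With the pallial marker mean as a covariate, Dlgap2 had an adjusted p of 0.213, and it was called in 9 of 12 alternatives. Without mouse 25 alone, Dlgap2 had a log2 difference of -0.15 in place of -0.23 (adjusted p = 0.0564). Shank1 in B6 was therefore below Low_Average in each of the regions, by 35.5%, 27.1% and 17.6%. In the PrL, B6 and PWK were level in Shank1 (688 and 689 CPM in means, adjusted p of their contrast = 0.919).

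In PWK, 1 member was lower and 1 higher in the CeA (19.1% and 20.1% of all genes). Shank2 was 18.0% lower (adjusted p = 0.0225), and Homer3 was 48.1% higher (adjusted p = 0.043), with 6.30 to 31.1 CPM and 2 of 6 PWK mice above all others. With the pallial marker mean as a covariate Homer3 had an adjusted p of 0.0869, and without the libraries that stood apart Shank2 had 0.0923. Homer3 rested on mice 24 and 40, without which singly the log2 difference was 0.35 (adjusted p = 0.256) and 0.30 (0.297) in place of 0.57, and it was called in 8 of 12 alternatives and in 41 of 48 fits with a mouse left out. Without mouse 48 Shank2 had a log2 difference of -0.19 in place of -0.29 (adjusted p = 0.163), and without mouse 24 an adjusted p of 0.0666. In the NAcc, 1 member was higher, which was Homer2, and none was lower (20% and 18.7% of all genes). In the PrL, 2 members were lower and 1 was higher (23.2% and 23.9% of all genes). Shank1 was 16.7% lower (adjusted p = 0.00126), Shank2 9.43% lower (adjusted p = 0.0451) and Shank3 19.5% higher (adjusted p = 0.00493). The PWK mice had 265 to 431 CPM of Shank3 in the PrL (median 329) and the B6 mice 169 to 271 (median 227), so the preferring strains lay on opposite sides of Low_Average for Shank3 and on the same side for Shank1. Both comparisons share the 6 low preference strains. Shank2 in the PrL was not called by edgeR (adjusted p = 0.0603), by DESeq2 (0.0561) or without the libraries that stood apart (0.291). It was called in 4 of 12 alternatives and in 31 of 48 fits with a mouse left out, and without mouse 40 the log2 difference was -0.058 in place of -0.14 (adjusted p = 0.418).

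Among the low preference strains, AJ had the highest Dlgap2 in the PrL, with 107 to 138 CPM (median 126), and was called against 5 of 7 strains. CAST had the lowest Homer1 in the PrL, with 114 to 162 CPM (median 138), and was also called against 5 of 7. The highest mean of Homer1 in the PrL was that of WSB, 197 CPM (153 to 235, median 199), beside PWK with a range of 117 to 233 and a higher median (209), and those neighbours did not differ beyond their spread. The WSB punches also had the highest sum of 8 immediate early genes, the genes induced by neuronal activity, with 817 to 2008 CPM in the PrL against 232 to 740 in the 42 other mice. All 8 of these genes were unique and higher in WSB in the PrL, Arc by 2.33 and Npas4 by 1.78 on the log2 scale, which are named here after their values were seen. The share of all genes unique and higher in WSB was not counted. Homer1 in the PrL of WSB was called against 2 of 7 strains only. Fos, Fosb, Arc, Egr2 and Npas4 were also unique and higher in CeA punches of WSB, and Fos in its NAcc punches. Homer1 of WSB differed from the mean of the other strains by log2 differences of 0.0063 (CeA) and -0.43 (NAcc). Of the 7 contrasts, 0 and 1 were called. The part of activity in the level of Homer1 was not tested.

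Whether a strain difference depended on the region was tested by an F test of 14 interaction terms over all libraries. It passed for 8 of the 10 members and for 34.6% of all genes. Homer2 had the lowest adjusted p (2.81e-08), and Shank3 (0.0692) and Homer3 (0.263) did not pass. With mouse as a replicate block the count was the same, 8. Without the libraries that stood apart in markers it was 3 (Dlgap4, Homer1 and Homer2), where 25.6% of all genes passed. With the B6 punch that the authors left out it was 4 (Dlgap1, Dlgap4, Shank1 and Homer2), where 24.1% of all genes passed. Region took 87.2% of the sum of squares of Dlgap1, 79.2% of Homer2 and 78.7% of Shank1. For Dlgap3, Homer3, Shank3 and Homer1 the largest share, 56.5% to 68.4%, was residual, as was 42.0% for Dlgap2.

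Homer1 and Dlgap1 are set beside the marker sums here for the libraries at the ends of those sums. In the NAcc, the PWK punches with the lowest striatal sums (429 and 631 CPM, mice 24 and 40) had the lowest Homer1 of all, at 36.0 and 41.7 CPM. The B6 punch with the highest striatal sum (8747) had the highest, at 295. With the striatal marker mean as a covariate, the log2 difference of B6 from Low_Average fell from 0.87 to 0.27 for Homer1 and from 0.72 to 0.30 for Dlgap3, and both stayed under 0.05. In the CeA, Dlgap1 had 242 CPM in the PWK punch with the lowest pallial sum (20.1) and 809 in the NOD punch with the highest (2494). Mouse 48, with pallial markers in its NAcc punch, had 453 CPM of Dlgap1 there, whereas the other PWK mice had 189 to 219. What part the makeup of the punches had in the strain differences was not tested.

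**Figure D5:**
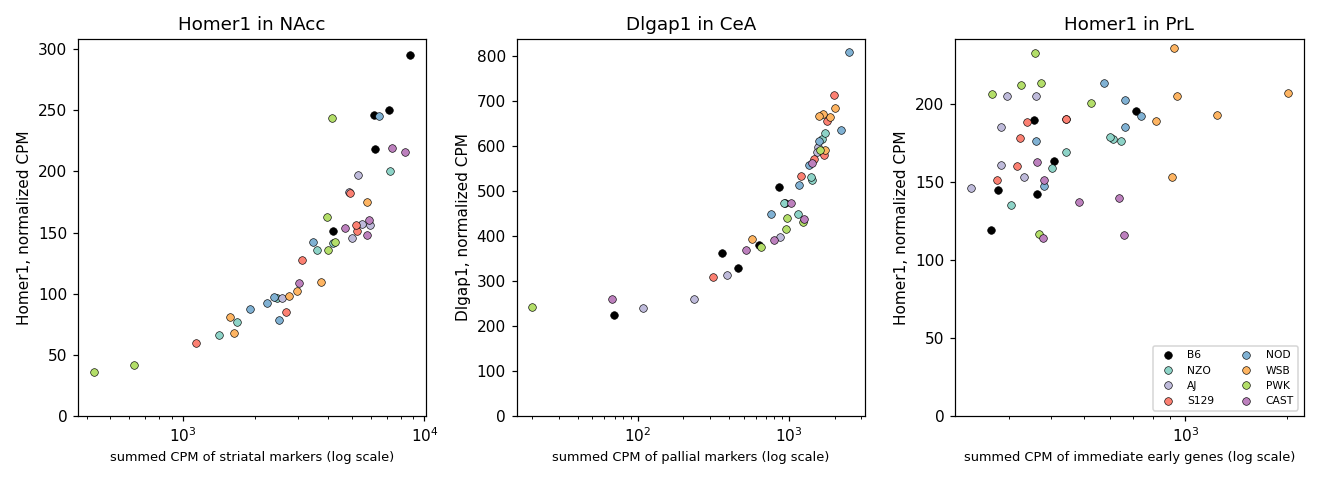
Normalized CPM of Homer1 in the NAcc, Dlgap1 in the CeA and Homer1 in the PrL against the summed CPM of a marker list in the same library (log scale), coloured by strain. Homer1 in the NAcc runs from 36.0 CPM at the lowest striatal sum to 295 at the highest, and Dlgap1 in the CeA is 242 CPM at the lowest pallial sum and 809 at the highest. In the PrL panel the 6 WSB mice stand to the right, from 817 to 2008 CPM of immediate early genes.

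Genes that bind the scaffolds were counted in lists written from general knowledge. Of the 4 MAGUK scaffolds of the PSD-95 family, 3 were lower in the NAcc than in the PrL and none was higher, with a median log2 difference of -0.19 against 0.03 over all genes and -0.49 over the members. For single genes the shares were 38.4% lower and 44.1% higher. Of 7 Homer ligands, 3 were higher and 3 were lower. Of 7 Shank and Dlgap partners, 2 were higher and 4 lower. Of 9 other postsynaptic density proteins, 2 were higher and 6 lower. In the CeA of B6 against Low_Average, 2 of 4 MAGUKs, 2 of 7 Homer ligands, 3 of 7 partners and 5 of 9 other postsynaptic density proteins were lower and none was higher, against 18.8% of all genes lower and 22.3% higher. In the NAcc of B6, 1, 0, 2 and 3 of them were higher, and 0, 0, 1 and 1 were lower, against 17.3% and 14.9% of all genes. Nothing particular to these lists is read from the counts.

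In the strain and region where a member was unique, 3 genes of the lists were unique too. Nlgn2, the neuroligin of inhibitory synapses, was lower in the CeA of B6 (log2 difference -0.31, SE 0.0414, largest adjusted p = 0.00066), beside Dlgap4. There Mog, an oligodendrocyte gene, was higher (log2 difference 1.52, SE 0.324, largest adjusted p = 0.0397). In the NAcc of PWK, beside Homer2, the microglial receptor Cx3cr1 was lower (log2 difference -0.61, SE 0.0843, largest adjusted p = 0.0112). No gene of the lists was unique in the CeA of AJ. Of all genes, 1.39% were unique and lower in the CeA of B6 and 0.71% in that of AJ. The shares in the directions of Mog and Cx3cr1 were not counted, and no link to the members is read from these genes.

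Sex gave no call in any region for the 10 members by limma, nor by edgeR or DESeq2, and no member had an unadjusted p under 0.05 (the lowest was 0.0939, Homer1 in the CeA). Of all genes, 0.135%, 0.0812% and 0.0947% differed between males and females in the CeA, NAcc and PrL.

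Over the 24 means of strain and region, each centred on its region, the gene most like Dlgap1 was Amph (Pearson's r = 0.94), like Shank1 Mnt (0.93), like Dlgap3 Ppp1ca (0.92) and like Dlgap2 Kctd16 (0.92). Homer1 was most like Arhgef2 (0.91), Shank3 most like the predicted gene Gm48623 (0.91), Dlgap4 like Icam5 (0.90), Shank2 like Sprn (0.88), Homer2 like Nmbr (0.82) and Homer3 like Msantd2 (0.67). Among the members, Dlgap3 and Homer1 (0.88) and Dlgap3 and Shank3 (0.85) went most closely together, and Shank1 and Homer1 were lowest (-0.58). Each gene most like a member was the highest among all tested genes, and no link is read from these values. The means share the libraries and the marker differences described above.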

How the data were processed

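RNA-seq was done on punches of 3 regions from 48 mice of 8 strains, and replicates are separate mice. The authors trimmed reads with Trimmomatic, aligned them with STAR 2.7.3a to GRCm39 (Ensembl 105), and deposited raw counts per gene and log2 CPM values scaled by TMM in edgeR 3.38.1, for genes with a mean CPM of at least 1 and no count above 50000. Their limma version was 3.52.2. The alignment allowed at most 3 mismatches per 100 bases, against 1 reference for all strains. Whether reads of some strains mapped less well, and changed the strain differences, was not tested. Of 240 deposited count columns, which hold repeat runs, 1 per sample was used, as in the deposited log2 table, and 1 B6 library of the NAcc was left out as the authors did. The log2 values were recomputed from the counts to within 5e-06 of the deposited log2 values.

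Strains were compared in each region with voom (limma 3.58.1, edgeR 4.0.16, R 4.3.3) with terms for strain, sex and tray, over 14785 genes. The 28 strain contrasts were Benjamini-Hochberg adjusted together in each region, and calls have an adjusted p under 0.05. B6 and PWK were also set against Low_Average. Regions and the interaction were fitted over all libraries. The labels give the same mouse in each region, so mouse was the replicate block of an alternative (consensus correlation 0.0476). Levels are normalized CPM, and CPM per kb uses merged exon lengths of GENCODE M21 matched by gene ID. The scripts were tested on simulated data. Alternatives were DESeq2 1.42.0, the quasi-likelihood test of edgeR, other normalization, filters, libraries and covariates, and leaving out each mouse. All 10 members were described. The strain unique for a member, or otherwise its highest and lowest strain, was named, as were list genes unique in the same strain and region, and the gene most like each member. The members and lists were chosen with earlier results of these data known. Figures were drawn with matplotlib 3.10.9.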

Additional observations from a re-analysis of the deposited data

Results flagged for a closer look

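Single mice far from the rest of their strain were looked for in the 240 groups of a member, strain and region, by the gap to the nearest mouse as a share of the range of the group. Of the groups, 21 (8.75%) were past the 95% critical value, 12 with a low mouse and 9 with a high one. Chance gives about 1 in 20 groups.

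In the CeA, 9 groups had such a mouse. Dlgap1 was low in S129 mouse 46, with 308 CPM against 534 to 713 in the other 5 (gap 0.6546 of the range). WSB mouse 27 was low in Dlgap1, at 393 CPM where the others had 592 to 686 (gap 0.7347). Dlgap4 was low in PWK mouse 24, with 267 CPM against 313 to 330 in the other 5 (gap 0.7452 of the range). WSB mouse 3 was high in Homer1, at 173 CPM where the others had 111 to 128 (gap 0.6785). Homer2 was low in WSB mouse 27, with 48.4 CPM against 73.5 to 85.0 in the other 5 (gap 0.7436 of the range). NZO mouse 26 was high in Homer3, at 11.9 CPM where the others had 6.82 to 8.39 (gap 0.6252). Shank1 was high in B6 mouse 9, with 461 CPM against 269 to 322 in the other 5 (gap 0.6660 of the range). WSB mouse 27 was low in Shank1, at 402 CPM where the others had 567 to 632 (gap 0.7589). Shank3 was high in S129 mouse 46, with 545 CPM against 228 to 304 in the other 5 (gap 0.6727 of the range).

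In the NAcc there were 7. Dlgap1 was high in PWK mouse 48, with 453 CPM against 189 to 219 in the other 5 (gap 0.8288 of the range). AJ mouse 21 was low in Dlgap2, at 62.0 CPM where the others had 102 to 117 (gap 0.7806). Dlgap2 was high in NOD mouse 47, with 104 CPM against 47.1 to 63.3 in the other 5 (gap 0.6271 of the range). WSB mouse 19 was high in Dlgap4, at 342 CPM where the others had 226 to 248 (gap 0.7719). Homer3 was high in NOD mouse 39, with 14.1 CPM against 8.40 to 9.82 in the other 5 (gap 0.7007 of the range). NOD mouse 47 was low in Shank1, at 179 CPM where the others had 279 to 338 (gap 0.7010). Shank2 was low in AJ mouse 21, with 121 CPM against 171 to 203 in the other 5 (gap 0.6643 of the range).

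In the PrL there were 5. Dlgap1 was low in NOD mouse 47, with 706 CPM against 778 to 814 in the other 5 (gap 0.6866 of the range). PWK mouse 8 was low in Homer1, at 117 CPM where the others had 200 to 233 (gap 0.7851). Homer2 was low in PWK mouse 40, with 54.8 CPM against 90.0 to 115 in the other 5 (gap 0.6694 of the range). WSB mouse 3 was high in Homer3, at 9.26 CPM where the others had 5.57 to 6.71 (gap 0.6340). Homer3 was low in CAST mouse 20, with 5.30 CPM against 6.91 to 7.70 in the other 5 (gap 0.7121 of the range).

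The strain difference depended on the region for 8 members by the interaction test, with adjusted p (limma) of 2.81e-08 for Homer2, 0.00296 for Dlgap4, 0.0153 for Dlgap1, 0.0155 for Homer1, 0.0168 for Shank2, 0.0226 for Dlgap2, 0.0232 for Shank1 and 0.0301 for Dlgap3.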

How the results depend on the processing

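Each of the 42 results was recomputed under 9 to 13 alternatives, 14 in all, and most with each of 48 mice left out. Of these values, 2171 kept their call or stayed near the main value, 136 did not, and 0 were reversed. The recomputed and deposited levels of the members differed by at most 6.5e-07. The cause was not tested for any change given here. Counts of members called against Low_Average moved in B6 from 4 to 2 in the CeA with the pallial covariate, in the NAcc from 3 to 0 with 144 libraries and to 5 with sample quality weights or the pallial covariate, and in the PrL from 4 to 2 without the libraries that stood apart. In PWK they moved in the CeA from 2 to 1 with no filter, no tray term, the pallial covariate or without the libraries that stood apart and to 4 with weights, and in the NAcc from 1 to 2 by DESeq2 and 4 with the striatal covariate. Called pairs moved in the CeA from 49 to 93 with weights and 32 with the pallial covariate. Of all pairs there, 38.4% and 26.4% were called, and 28.9% in the main fit. In the NAcc, called pairs of members moved from 35 to 11 with 144 libraries and 102 with weights. Of all pairs there, 22.6% and 40.1% were called, and 26% in the main fit. With weights, 39.5% of all pairs in the PrL were called. Unique differences in the CeA moved from 2 to 1 by edgeR, DESeq2, no filter, either covariate or without the libraries that stood apart, and to 4 with weights. In the NAcc they moved from 1 to 2 with the pallial covariate. In the PrL they moved from 0 to 1 by edgeR and DESeq2 and to 2 with weights, either covariate or without the libraries that stood apart. Members with any strain difference in the NAcc moved from 6 to 1 with 144 libraries and 10 with weights. Shares of all genes under the alternatives were not counted for the Low_Average, unique and any-difference counts. Those with an interaction moved from 8 to 4 with 144 libraries (24.1% of all genes) and 3 without the libraries that stood apart (25.6%). The pallial covariate and leaving out those libraries were chosen after seeing the data.

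With mouse as a replicate block, the interaction was called for 8 members, as without it, and the block changed no call between regions.

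With each mouse left out in turn, members called against Low_Average numbered 2 to 5 (CeA), 2 to 5 (NAcc) and 3 to 5 (PrL) in B6 and 0 to 3, 1 to 2 and 2 to 4 in PWK. Called pairs numbered 39 to 69, 25 to 45 and 39 to 58. Of all pairs, 27.4% to 30.4%, 24.2% to 28.5% and 32.1% to 33.9% were called. Unique differences numbered 1 to 2, 1 to 1 and 0 to 2. Members with any strain difference numbered 6 to 8, 3 to 8 and 5 to 6, and sex differences 0 to 0 in each region. Shares of all genes for the other counts were not taken in these fits. Homer2 in the CeA of AJ lost its unique call in 8 of these 48 fits, and Homer2 in the NAcc of PWK kept it in all 48. Depth limits Homer3 most, with 73 to 598 counts per library.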

Other observations

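The B6 punch of the NAcc that the authors left out (mouse 1) held 16470646 counts. It had 189 CPM of striatal neuron markers, where the other 5 B6 punches had 4169 to 8749. Homer1 was 27.6 CPM there and 152 to 295 in the other B6 punches, Dlgap2 13.9 and 84.3 to 119, and Dlgap3 122 and 311 to 665. Dlgap4 (190), Shank2 (88.5) and Shank3 (148) were likewise below every other NAcc library, and Homer3 (14.7) was above every one. Dlgap1 (243) and Homer2 (35.0) were within the range of the other B6 punches, and Shank1 (342) was above it.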
